A study of Zea mays with 2182 samples.

Results

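The 21PHAS loci are the genomic origins of the phased small RNAs that maize anthers make before meiosis, and they were followed here locus by locus in single anther cells. Every row of the table of unique molecular identifiers (UMIs, each standing for 1 captured transcript molecule) whose name starts with 21PHAS was taken, which gave 0.681% of its 22173 rows, made up of 56 loci with at least 10 UMIs in the analysed cells and 95 loci with 3 to 9. The table also held 75 loci of the other class, 24PHAS. The cells came from anthers of the fertile inbred line W23 of Zea mays, which carried no mutation and had no treatment. Anthers of 11 lengths between 0.5 and 3.0 mm were fixed and digested, their cells were sorted singly, and the polyadenylated RNA was counted with CEL-Seq2, a method that reads the 3' end of each captured transcript. Plants per length are given only as a minimum for the whole study and no label names the plant of a cell, so cells are not replicates and each length is 1 sample.

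A PHAS locus is transcribed by RNA polymerase II into a long polyadenylated precursor that encodes no protein. In grass anthers a microRNA guides the cleavage of that precursor, miR2118 for the 21PHAS class and miR2275 for the 24PHAS class. SGS3 and RDR6 turn the cleaved strand into a duplex, and a Dicer-like enzyme cuts the duplex into small RNAs at regular steps from the cleavage site. In maize the 21PHAS class belongs to the premeiotic anther, and its production is known to need a normal epidermis. The UMIs counted here are of the precursors, not of the small RNAs.

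The analysis kept the 1658 of 2182 cells that had at least 500 UMIs. Median depth was 1970 UMIs per cell at 0.5 mm, 1120 at 0.75 mm, 1228 at 1.0 mm and 2162 at 2.0 mm. Cell titles open with 1 of 6 dates or words, called sets here, followed by a number whose meaning the labels do not give. Cells that share set, number and length form a pool below, and 58 pools held an analysed cell. The sets Pilot and MiSeq covered 2.0 mm only, the latter with 28 cells. Pool 7 of set 8.18.21 at 0.5 mm stood apart from the other short-length pools by its 24PHAS level of 7081 CPM (UMIs scaled to a total of 1000000), and it held 3 of the 21PHAS UMIs. Sequencing reads shared by near-identical loci could have been split or dropped in the authors' counting, so the division of UMIs between similar loci is uncertain.

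Every locus listed in the table had at least 3 UMIs in the analysed cells, and no locus or small group of loci carried the class. The class held 1407 UMIs, or 0.0359% of all UMIs. UMIs per locus ran from 3 to 47 with a median of 8 and quartiles of 5 and 11. The locus with most, 21PHAS_NO350, held 3.34% of the UMIs (95% exact interval 2.46 to 4.42%, which like all intervals here covers counting error only). The 12 leading loci held 20.7%, the leading 50 held 54.3%, and 45 loci were needed to reach 50%. In 72.8% of the loci the count never exceeded 3 UMIs in any cell, and the highest count of a locus in a cell was 12. Each locus was seen in 3 to 20 cells (median 5) and in 2 to 10 pools (median 4), and 96 loci were seen in at least 3 sets. No listed locus rested on a single cell. The locus names carried numbers from 9 to 586, and most of these numbers had no row. Whether rows were filtered on counts before deposit is not given, so the lowest counts of UMIs and cells may reflect such a filter.

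**Figure D1:**
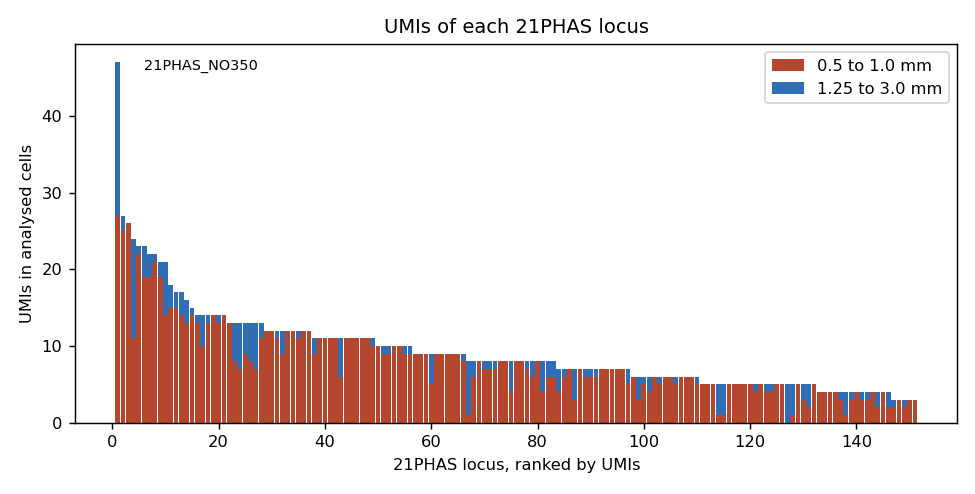
UMIs of each 21PHAS locus in analysed cells (y axis, count), ranked from most to fewest (x axis), with the UMIs of anthers of 0.5 to 1.0 mm in red and those of 1.25 to 3.0 mm stacked above in blue. The ranks fall from 47 UMIs to 3 without a break after the first locus, and 21PHAS_NO350 stands out by its blue segment of 20 UMIs.

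Most UMIs lay at the 3 shortest lengths. Anthers of 0.5 mm gave 32.8% of them, those of 0.75 mm 28.2% and those of 1.0 mm 24.2%. The UMIs at these lengths were of 90.7%, 84.1% and 79.5% of the loci, and 93 loci had UMIs at all 3. Summed over these lengths the level was 1382 CPM (95% Poisson interval 1305 to 1463). At 1.25 to 3.0 mm it was 68.4 CPM (59.4 to 78.3). With each cell scaled to the same total the values were 997.59 and 106.05 CPM, so the gap was smaller when deep cells did not weigh more. A UMI was seen in 83 cells at the short lengths (20.9%, 17.0 to 25.2) and in 63 of 1261 cells beyond them (5.0%, 3.86 to 6.35). Fewer cells that make the precursors and less precursor per cell cannot be told apart in these sums.

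The levels rested on few pools and fewer cells. At 0.5 mm, pool 8 of set 8.18.21 held 456 of the 461 UMIs, and 76.3% of those were in a single cell. At 0.75 mm, pool 5 of set 7.21 gave 48.4% of the UMIs, in 14 cells. Pool 1 of set 1.4.21 gave 36.3%, nearly all (96.5%) in 1 cell, and pool 3 of the same set gave 14.6%, all in 1 cell. At 1.0 mm, pool 2 of set 8.18.21 gave 87.1% in 23 cells, and pool 5 of that set 12.6% in 8 cells. In these 2 pools 11 and 5 of the positive cells held 1 UMI, and the richest cell held 31.1% and 69.8%. Within set 8.18.21 the 0.5 mm cells were at 1255 CPM and the 1.0 mm cells at 1623 CPM, against 20.7 CPM in its 1.25 mm cells. Within set 1.4.21 the 0.75 mm cells were at 3369 CPM, while those of 0.5 mm had 2 UMIs (40.1 CPM) and those of 1.0 mm had 1 (27.8 CPM). In neither set did a later length reach the highest short one.

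**Figure D2:**
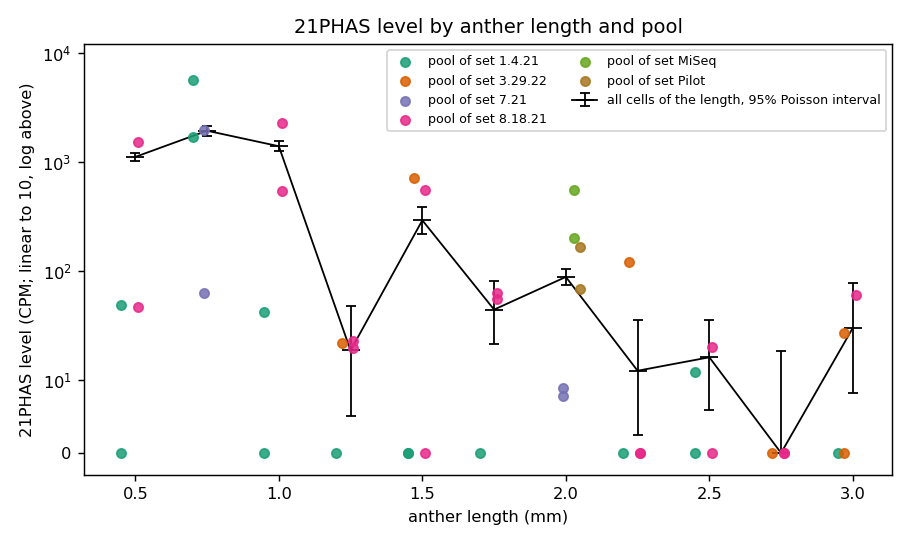
Summed 21PHAS level (y axis, CPM, linear to 10 and logarithmic above) by anther length (x axis, mm), with pools of at least 8 analysed cells as points coloured by set and all cells of a length as the black line with its 95% Poisson interval. Pools of the same length spread more widely than the intervals, from 0 to 1512 CPM at 0.5 mm, and at 2.75 mm every pool was at 0.

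The 12 loci named for the short lengths, those with most UMIs there, held 19.7% (17.5 to 22.1) of the 1198 UMIs there. The last 2 of them were tied at 14 UMIs with 21PHAS_NO542, 21PHAS_NO573 and 21PHAS_NO73, and ties were broken by name. 21PHAS_NO350 had 16 UMIs at 0.5 mm, 3 at 0.75 mm and 8 at 1.0 mm, in 13 cells. 21PHAS_NO144 had 1, 16 and 9 UMIs at these lengths, 21PHAS_NO444 had 7, 11 and 7, and 21PHAS_NO134 had 9, 5 and 8. These leading loci were thus present at every short length, but the length with most UMIs was not the same for all of them. Of the 0.5 mm UMIs of 21PHAS_NO350, 21PHAS_NO444 and 21PHAS_NO134, the cell with most 21PHAS UMIs held 10, 6 and 6.

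The counts of other leading loci also leaned on few cells. 21PHAS_NO122 had 10 UMIs at 0.5 mm, 9 at 0.75 mm and 0 at 1.0 mm, in 4 cells, of which the 0.5 mm cell with most 21PHAS UMIs held 9. 21PHAS_NO375 had 2, 14 and 5 UMIs, with 8 in a single 0.75 mm cell, and 21PHAS_NO396 had 2, 9 and 3. The remaining 5, 21PHAS_NO253, 21PHAS_NO268, 21PHAS_NO161, 21PHAS_NO319 and 21PHAS_NO373, had 14 to 19 UMIs at the short lengths, in 8 to 14 cells each. The 0.5 mm cell with most 21PHAS UMIs held 3, 7, 6, 6 and 2 of their UMIs, in that order. Over all loci the ranking at a length hardly carried over to another. The correlation of UMIs per locus between 0.5 and 0.75 mm was 0.13 (Pearson) and 0.26 (Spearman), between 0.5 and 1.0 mm 0.17 and 0.06, and between 0.75 and 1.0 mm 0.28 and 0.14. Most loci have few UMIs at each length, which by itself lowers such values, and the loci of a length share its cells and depth, so these are descriptions only.

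The UMIs of many loci lay in the same few cells. At the short lengths 83 cells held a 21PHAS UMI. Of these, 40 held a single UMI, and all 43 with more held at least 2 different loci (51.8% of the 83, 40.6 to 62.9). No locus held more than 2.25% of the short-length UMIs, so 2 UMIs of a cell would rarely be of the same locus. The 51.8% therefore mostly counts the cells with more than 1 UMI. The 21 cells with 5 or more 21PHAS UMIs were 25.3% of the positive cells and held 91.5% of the short-length UMIs. Positive cells were also deeper, with a median of 2115 UMIs against 1210.5 in the cells with none. With each cell thinned to 500 UMIs the share of positive cells with at least 2 loci was 39.1%, below the interval of the unthinned share.

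The cell with most was a 0.5 mm cell in pool 8 of set 8.18.21, well 36s. It held 24.7% of all 21PHAS UMIs analysed, of 82.1% of the loci, and these made up 4.14% of its 8410 UMIs. A 0.75 mm cell of pool 1 in set 1.4.21 followed with UMIs of 83 loci, which made up 7.55% of only 1842 UMIs, and a 1.0 mm cell of pool 2 in set 8.18.21 had 92 UMIs of 61 loci. The next 4 held 80, 71, 60 and 58 UMIs of 55, 48, 49 and 46 loci. In these 7 cells, which came from 5 pools and all 3 short lengths, between 1.22 and 2.81 UMIs were found per detected locus. High 21PHAS content was thus spread over many loci in each such cell.

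**Figure D3:**
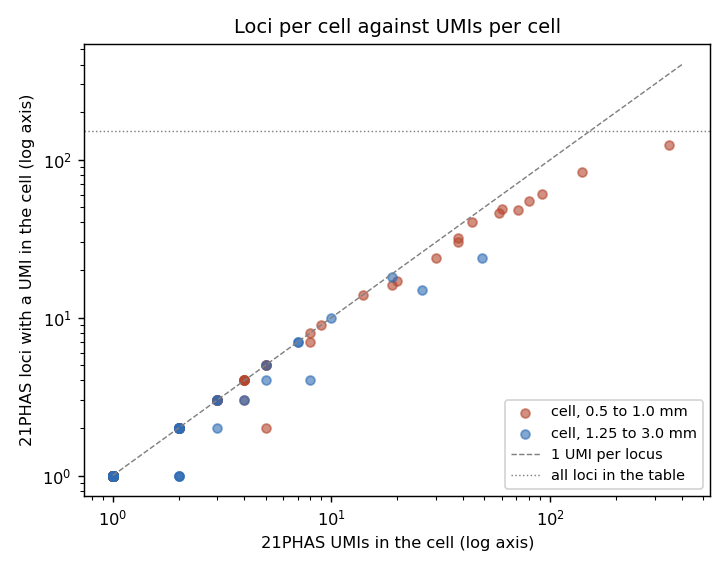
Number of 21PHAS loci with a UMI (y axis, log scale) against the 21PHAS UMIs of the cell (x axis, log scale) for cells of 0.5 to 1.0 mm (red) and 1.25 to 3.0 mm (blue); the dashed line marks 1 UMI per locus and the dotted line all loci of the table. Cells with 14 or fewer UMIs lie mostly on or near the dashed line, and the richest cell reaches 82.1% of the loci.

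The 7 cells with most 21PHAS UMIs held 60.3% of the UMIs and between them 95.4% of the loci. They did not hold the same loci in full: 59 loci were in at least 4 of the 7, and 21PHAS_NO134 and 21PHAS_NO444 were in all 7. Even a leading locus could be missing from a cell that was rich in others. 21PHAS_NO144 was absent from the richest cell, although 12 of its 13 short-length cells held another locus.

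For each of the 12 leading loci, the share of its short-length cells that also held another 21PHAS locus was set against that share in the remaining short-length cells. All 12, 13, 10, 4, 8 and 9 cells of 21PHAS_NO444, 21PHAS_NO134, 21PHAS_NO375, 21PHAS_NO122, 21PHAS_NO319 and 21PHAS_NO373 held another locus. The lowest share was that of 21PHAS_NO268, 8 of 11 cells (72.7%, 39.0 to 94.0). In the remaining cells the share was 18.0 to 20.1% for every one of the 12 loci. Cells with a leading locus had median depths of 1981 to 4426 UMIs against 1313 to 1347 in the rest, and the part of that depth in the sharing was not tested. The 12 loci were picked by their UMIs, and 91.5% of the short-length UMIs lay in the 21 cells with 5 or more. The sharing of these loci largely restates that concentration. Among the 66 pairs of these loci, the second locus was found in 15.4 to 75.0% of the cells of the first (median 37.5%) and in 0 to 3.05% of the rest (median 1.17%). Of the 150 loci with a UMI at the short lengths, 76.7% had no such cell without another locus.

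**Figure D4:**
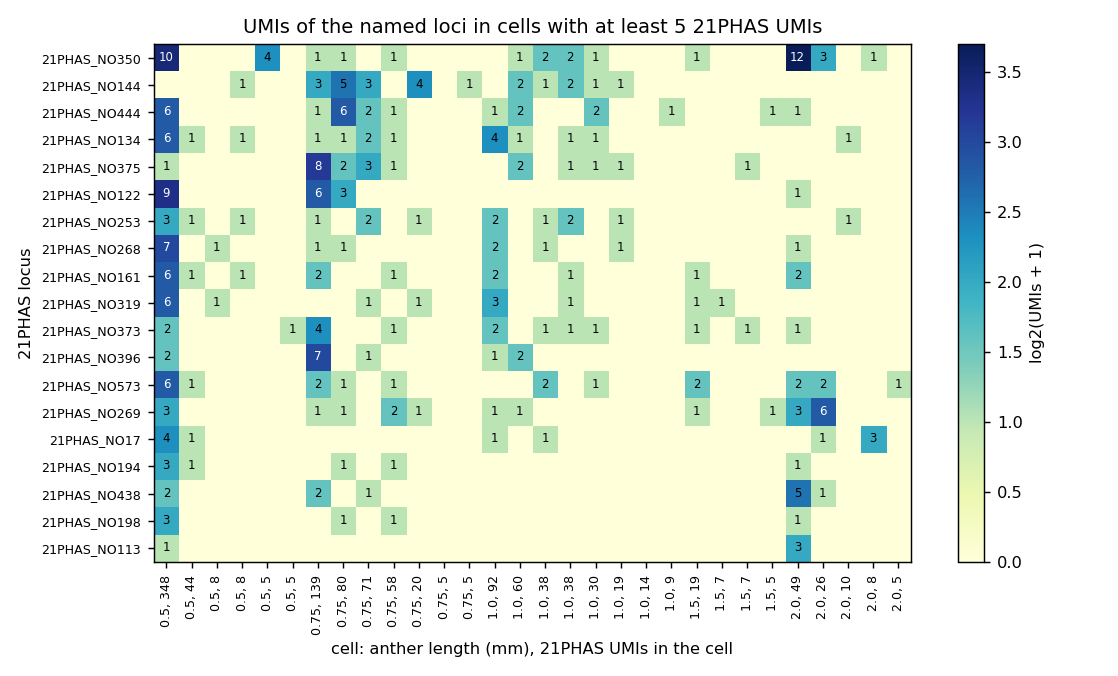
UMIs of the 19 named loci (rows) in the 30 cells with at least 5 21PHAS UMIs (columns, labelled with anther length in mm and 21PHAS UMIs), with the count printed and coloured on a log2(UMIs + 1) scale. Most short-length columns fill many rows, the column of the richest cell lacks 21PHAS_NO144, and 2 of the 2.0 mm columns hold most of the later counts of 21PHAS_NO350 and 21PHAS_NO269.

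Past 1.0 mm, 78 loci still had UMIs, 77 of which also had UMIs at the short lengths (98.7% of the 78 and 51.3% of the 150 short-length loci). These lengths gave 14.9% (13.0 to 16.8) of the 1407 21PHAS UMIs, although they gave 77.9% of all UMIs. The share depended on few sources: it was 8.13% without set Pilot, 28.7% without set 8.18.21, 25.2% with cells scaled to the same total and 37.4% without the 7 richest cells. Detection past 1.0 mm did not follow the short-length rank. UMIs were found there for 38 of the 81 loci at or above the median short-length count and for 40 of the 70 below it. Of the 78 loci, 54 were seen at 1 later length, 16 at 2 and 8 at 3, and 35 rested on a single UMI.

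The course over the later lengths was uneven. At 1.25 mm there were 4 UMIs, a level of 18.7 CPM (5.1 to 47.9). At 1.5 mm there were 50, or 291.4 CPM (216.3 to 384.2), which was above both neighbouring lengths. The 10 UMIs of 1.75 mm anthers gave 44.3 CPM, and the UMIs of 2.0 mm anthers, 9.38% of the class, gave 88.2 CPM (73.8 to 104.6). Beyond 2.0 mm only 13 UMIs were found in 10 of 478 cells: 3 at 2.25 mm, 6 at 2.5 mm, 0 at 2.75 mm and 4 at 3.0 mm. The count of 0 at 2.75 mm allows up to 2.38% of cells with a UMI and a level of up to 15.0 CPM. No cell beyond 2.0 mm held more than 2 of these UMIs, and 1 held more than 1 locus.

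The 50 UMIs at 1.5 mm came from 39 loci in 2 pools. Pool 2 of set 8.18.21 had 28 UMIs in 9 cells with at most 7 in a cell. Pool 1 of set 3.29.22 had 22 UMIs in 4 cells, of which a cell of 550 UMIs held 19 from 18 loci. Well names connect some of these cells to others: in pool 2 of set 8.18.21 all 9 positive cells, and 20 of the 31 others, had the well name of a positive short-length cell of some pool. Over all later lengths this held for 42 of 63 positive cells (66.7%) and 638 of 1198 others (53.3%). Over the 3024 rows compared, the 9 cells had a median correlation of 0.26 with the 1.0 mm cell of the same set, number and well and 0.18 with cells of other wells, and the same well ranked first for 1 of the 9. In the 23 compared cells of that pool with no 21PHAS UMI these medians were 0.18 and 0.15. The 9 and the 23 cells were not matched for depth, and its part was not tested. The 1.0 mm cell of the same well held a 21PHAS UMI for all of the 9 but that of well 35s. It did so for a smaller part of the 23. In all lengths together, the 11 well names that were positive in at least 4 pools held 45.9% of the positive cells and 15.1% of the 1512 others. Those 11 names were chosen by these same counts, and the part of recurring wells in the later UMIs was not tested.

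The UMIs at 2.0 mm were of 53 loci, 16 of them also seen at 1.5 mm. They came almost wholly from sets Pilot and MiSeq, with all but 4 of them, while these sets gave 68.8% of all UMIs at that length. Pilot cells were at 108.2 CPM (88.3 to 131.2) and MiSeq cells, with 25 UMIs, at 324.7 CPM (210.1 to 479.4). Cells of set 7.21 at the same length had 3 UMIs in 150 cells (8.14 CPM, 1.68 to 23.8) and those of set 1.4.21 had 1 in 30 cells. In Pilot 47.6% of the UMIs lay in 1 cell, and in MiSeq 40.0%, a spread between cells that the intervals do not cover. Median depth was 3903 UMIs per cell in Pilot, 1109 in MiSeq and 1502.5 in set 7.21. MiSeq cells also had a 24PHAS level of 14444 CPM, against 25.2 CPM in Pilot and 0 in sets 7.21 and 1.4.21. The level at 2.0 mm thus differed by set in these cells, and set and plant cannot be told apart. The part of depth was not tested.

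Of the 8 loci named for their UMIs past 1.0 mm, 21PHAS_NO350 was also among the 12 named for the short lengths, and 21PHAS_NO573 was tied with the last of those. The last 2 of the 8, 21PHAS_NO17 and 21PHAS_NO198, were tied at 5 later UMIs with 21PHAS_NO275 and 21PHAS_NO532. The 8 loci held 69 of the later UMIs (33.0%, 26.7 to 39.8), and the 12 leading short-length loci held 41 (19.6%). 21PHAS_NO350 had 20 later UMIs, 19 of them at 2.0 mm, and made up 9.57% (5.94 to 14.4) of the later UMIs against 2.25% (1.49 to 3.26) of the short-length ones. Of its 2.0 mm UMIs, 12 were in a Pilot cell of pool 2 that held 49 21PHAS UMIs of 24 loci, and 3 were in a Pilot cell of pool 1 with 26 UMIs of 15 loci. 21PHAS_NO269 had 11 short-length UMIs, 2 at 1.5 mm, 1 at 1.75 mm and 10 at 2.0 mm, of which the same 2 cells held 3 and 6. The later share of both loci thus rested mostly on 2 cells.

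The other 6 of these loci had 5 to 7 later UMIs. 21PHAS_NO573 had 14 short-length UMIs, then 2 at 1.5 mm and 5 at 2.0 mm. 21PHAS_NO438 had 7, then 6 at 2.0 mm, and 21PHAS_NO17 had 8, then 5 at 2.0 mm. The 2 Pilot cells described for 21PHAS_NO350 held 2 and 2 of the 2.0 mm UMIs of 21PHAS_NO573. They held 5 and 1 of those of 21PHAS_NO438. 21PHAS_NO194 had 7, then 1 at 1.5 mm, 3 at 1.75 mm and 2 at 2.0 mm, while 21PHAS_NO198 had 6, then 2, 2 and 1. 21PHAS_NO113 had 1 UMI at the short lengths and 7 past 1.0 mm. Of these 7, 1 was at 1.25 mm, 5 were at 2.0 mm and 1 was at 2.5 mm. The Pilot cell with 49 21PHAS UMIs held 3 of the 5 at 2.0 mm. More later than short-length UMIs were also seen for 21PHAS_NO158, 21PHAS_NO206 and 21PHAS_NO533 (1 and then 4 each) and for 21PHAS_NO263 (1 and then 3). The same held for 21PHAS_NO248 (3 and then 4), 21PHAS_NO586 (2 and then 3) and 21PHAS_NO532, which is described below.

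A few sparsely counted loci appeared where most leading loci did not. They were picked after their values were seen. Beyond 2.0 mm the 8 loci with a UMI were 21PHAS_NO113, 21PHAS_NO139, 21PHAS_NO253, 21PHAS_NO358, 21PHAS_NO410, 21PHAS_NO496, 21PHAS_NO532 and 21PHAS_NO533, of which 21PHAS_NO253 was among the 12 named for the short lengths. 21PHAS_NO532 was the only locus with no short-length UMI. It had 3 UMIs at 2.0 mm and 2 at 2.5 mm in 5 cells, of which 1 held another 21PHAS locus. 21PHAS_NO533 had 1 UMI at 0.5 mm, 1 at 2.0 mm, 1 at 2.5 mm and 2 at 3.0 mm. These 2 and 21PHAS_NO139, 21PHAS_NO158, 21PHAS_NO206, 21PHAS_NO557 and 21PHAS_NO586 were the 7 loci absent from all 7 of the cells richest in 21PHAS, and each had 5 or 6 UMIs in all. A locus that differs from the class and a locus met by chance in few cells cannot be told apart at such counts.

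The trend over the 11 lengths could be tested for few loci. In the planned fit of a slope on length (edgeR quasi-likelihood test, Benjamini-Hochberg adjustment over all rows tested), 0 of the 21PHAS loci passed the filter on low counts, while 1651 of the 5537 rows tested were called (29.8%). The fit therefore holds no information on the class. With every row of at least 10 UMIs fitted, 56 loci were tested and 48 of them were called as falling with length, none as rising, against 5.57% of the 18752 rows tested there that fell. A locus reached 10 UMIs mostly through the lengths at which it was high, so a falling slope was largely set by that filter, and the count and the slopes are given as a description, not as support. Slopes of loci at 0 in many lengths also depend on the prior count of the fit. Without the richest cell 24 loci were tested and 11 fell, against 5.27% of all rows. Without the 0.5 mm sum it was 16 of 22 loci tested (3.13% of all rows fell), without the 0.75 mm sum 14 of 26 (4.0%) and without the 1.0 mm sum 25 of 35 (4.2%). With the replicate block (pool sums, set and number as the block) 0 of 56 were called, near the 0.209% of all rows that fell there. Of the 56, 54 had negative slopes and 20 were at an unadjusted p under 0.05. Without the block, the slopes in log2 units per mm were -4.35 (SE 0.948) for 21PHAS_NO144, which had no later UMI, -3.52 (SE 0.654) for 21PHAS_NO444 and -1.69 (SE 0.536) for 21PHAS_NO350. 21PHAS_NO253 (-2.12, SE 0.651), 21PHAS_NO573 (-2.01, SE 0.574) and 21PHAS_NO350 were still tested but no longer called without the richest cell. The same held for 21PHAS_NO122, 21PHAS_NO161, 21PHAS_NO188, 21PHAS_NO189, 21PHAS_NO268 and 21PHAS_NO515. 21PHAS_NO269, with more UMIs later than at the short lengths, had a slope of -1.35 (SE 0.59) and was not called.

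Few partners of the pathway were found in the table by symbol. Of 14 named pathway genes, SGS3 alone had a row under its symbol, and of the miR2118 precursors 1 was listed, zma-MIR2118f. Rows under gene identifiers were not searched, so the other genes may be present under another name. That precursor had 4 UMIs in 4 cells, and all 4 also held 21PHAS UMIs, against 8.81% of all analysed cells. These 4 cells were deep, with 2115 to 8410 UMIs each against a median of 1342 over all analysed cells. The part of depth was not tested. The 4 cells were the richest cell at 0.5 mm, cells with 92 and 3 21PHAS UMIs at 1.0 mm, and a 2.0 mm Pilot cell with 8. Among the other microRNA precursors listed, zma-MIR2275c, which gives the 24PHAS trigger, had 83 UMIs of which 53 were at 1.25 mm. Only zma-MIR169a, with 4 UMIs, had most of its UMIs at the short lengths.

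SGS3, which in Arabidopsis works with RDR6 on cleaved precursors, was at a higher level in cells rich in 21PHAS. Across the 6 short-length pools that had both kinds of cell, its level was 2141 CPM (1843 to 2474) in the 21 cells with 5 or more 21PHAS UMIs, 976.7 CPM (810.5 to 1167) in the 54 cells with 1 to 4, and 884.0 CPM (800.1 to 974.3) in the cells with 0. By pool, the rich cells and the cells with none were at 2551 and 688.2 CPM in pool 8 of set 8.18.21 at 0.5 mm. For pool 5 of set 7.21, of 0.75 mm, the values were 2362 and 1192 CPM, and for pool 2 of set 8.18.21, of 1.0 mm, 1792 and 1069 CPM. The rich cells were higher in 5 of the 6 pools, the exception being pool 3 of set 1.4.21, whose single rich cell had no SGS3 UMI. Of the 5, pool 1 of set 1.4.21 and pool 5 of set 8.18.21 also had a single rich cell, with 4 and 9 SGS3 UMIs. Median depth was 3158 UMIs in the rich cells and 1254 in the cells with none.

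The rich cells of these 6 pools also held 24PHAS UMIs, 21 UMIs of 7 loci in 9 of the 21 cells (244.4 CPM, 151.3 to 373.6), led by 24PHAS_NO24 with 5. The 54 cells with 1 to 4 21PHAS UMIs held 1 such UMI, and the cells with none held 0, which allows a level of up to 6.53 CPM. In these pools 24PHAS UMIs were thus found nearly only beside many 21PHAS UMIs. Over all short-length cells with no 21PHAS UMI the 24PHAS level was 280.7 CPM (239.9 to 326.3), but all except 1 of those UMIs were in pool 7 of set 8.18.21. The 24PHAS level itself was highest in 1.5 mm anthers (7599 CPM) and in those of 1.75 mm (7463 CPM).

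**Figure D5:**
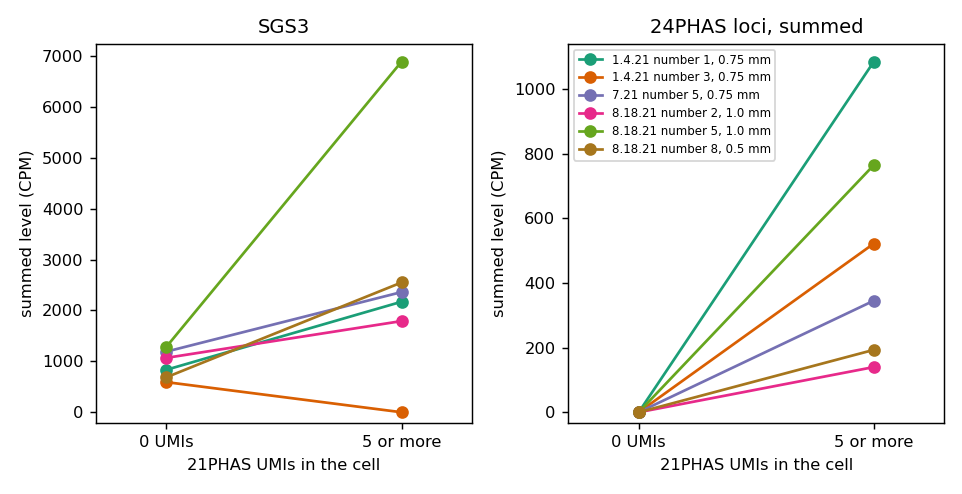
Summed level (y axis, CPM) of SGS3 (left) and of the 24PHAS loci (right) in cells with 0 and with 5 or more 21PHAS UMIs (x axis), with a line for each of the 6 pools of 0.5 to 1.0 mm that had both kinds of cell. SGS3 is higher in the rich cells of 5 pools and at 0 in the single rich cell of the other. Of the 5, pool 1 of set 1.4.21 and pool 5 of set 8.18.21 had 1 rich cell each. The 24PHAS level is 0 in the cells with no 21PHAS UMI in all 6.

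Which anther cell type the rich cells were could not be read from the markers. The lists were matched by symbol only, so a member without a row may be present under another name. Of the epidermis list only CR4 had a row, with 1 UMI in the 21 rich short-length cells (11.6 CPM) and 12 in those with no 21PHAS UMI (19.9 CPM). Of the germinal and meiosis list only RAD51B had a row, with 3 and 14 UMIs (34.9 and 23.2 CPM), and of the tapetum list none had. The 4 photosynthetic genes together were at 162.9 CPM in the rich cells, 436.8 CPM in the cells with none and 2307 CPM past 1.0 mm. Their part in the 21PHAS differences was not tested.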

How the data were processed

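The authors deposited 1 table of UMI counts per row and cell, whole numbers that were not normalized, with each cell as a sample. Of its 22173 rows, 151 are 21PHAS loci. Per the submitters' processing notes, reads were handled with HISAT2 and the build B73 RefGen_v4; the aligner's version, the counting tool, the treatment of reads that match several loci and any filters were not given in the sources used here. No genome of that build was used, so no coordinates or sequences are given.

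Length, set, number and well were read from the cell titles. Cells with at least 500 UMIs were kept; doublets were not removed. Levels (CPM) are summed UMIs scaled to a total of 1000000, with exact Poisson intervals; shares have exact binomial (Clopper-Pearson) intervals at 95%, and the limit for a count of 0 is 3 counts. Intervals cover counting error only. For the trend, edgeR 4.0.16 (R 4.3.3) fitted the sums of the 11 lengths with TMM factors, filterByExpr and a quasi-likelihood test of the slope on length at a false discovery rate of 0.05, after a check on simulated data. DESeq2 1.42.0 was an alternative; Python 3.11.15 did the rest. The p-values measure the scatter of lengths around a line. Named were the 12 loci with most UMIs at 0.5 to 1.0 mm and the 8 with most at later lengths; others named were chosen after their values were seen. The members, gene lists and tests were chosen with earlier results of these data known.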

Additional observations from a re-analysis of the deposited data

Results flagged for a closer look

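Within 9 lengths, the highest and lowest pool were compared with the gap to the next pool. The rule is meant to mark about 1 in 20 groups of normally distributed values. That rate does not hold for pools with few or 0 UMIs. Pools are not labelled as separate plants. At 0.5 mm, pool 8 of set 8.18.21 stood apart with 1512 CPM of 21PHAS against 48.4 CPM in the next pool. At 1.25 mm, pool 1 of set 1.4.21 had 0 CPM while the other pools were at 19.8 to 22.7 CPM, each of which was 1 or 2 UMIs. At 2.0 mm, pool 1 of set MiSeq had 555.9 CPM, from 15 UMIs in 2 of its 8 cells, while the next highest pool had 10 UMIs in 4 of its 20 cells. At 2.25 mm, pool 1 of set 3.29.22 had 120.3 CPM from 3 UMIs, with all other pools at 0. In such a case the rule marks a pool with any UMI.

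The 524 cells under 500 UMIs were used only in the alternative with no minimum of UMIs. Of these, 14 held a 21PHAS UMI (2.67%, 1.47 to 4.44), with 38 such UMIs in all. Those of 0.5 to 1.0 mm had 8 UMIs (220.8 CPM, 95.3 to 435.1), below the 1382 CPM of the analysed cells of these lengths. Without the 7 richest cells the analysed level was 415.2 CPM, which lies inside that interval. The rest of the 38 UMIs lay past 1.0 mm. Over all lengths the interval of the cells under 500 UMIs was 139.4 to 270.4 CPM, which contains their short-length level. The fall past 1.0 mm of the analysed cells was thus not seen in these cells, and the difference was not tested.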

How the results depend on the processing

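The share of short-length UMIs in the 12 leading loci moved by less than its counting interval in all 12 alternatives. Leaving out set Pilot, MiSeq or 3.29.22 could not move it, because these sets held no analysed cell of 0.5 to 1.0 mm. The 12 loci were kept as picked on all analysed cells. The 21PHAS level at 0.5 to 1.0 mm was 1541 CPM with at least 1000 UMIs per cell, 990.3 without the richest cell, 997.59 with each cell scaled to the same total, 992.4 with cells thinned to 500 UMIs and 415.2 without the 7 richest cells, an alternative added after seeing the data. At 1.25 to 3.0 mm it was 59.2 CPM with at least 1000 UMIs, 79.0 without set 8.18.21, 50.3 without set Pilot, 106.05 scaled and 103.1 thinned. The share of 21PHAS UMIs past 1.0 mm was 12.1% with at least 1000 UMIs, 17.2% without set 1.4.21, 17.0% without set 7.21, 28.7% without set 8.18.21, 8.13% without set Pilot, 19.7% without the richest cell, 25.2% scaled, 24.8% thinned and 37.4% without the 7 cells. Positive short-length cells with at least 2 loci were 39.1% when thinned.

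The share of all 21PHAS loci called in the trend was 31.8% with rows of at least 10 UMIs, 68.9% with no filter (5.17% of all rows fell there) and 0.662% (1 of 1 tested, where 15.4% of all rows fell) with set as a covariate. With rows of at least 10 UMIs it was 7.28% without the richest cell, where 5.27% of all rows fell. It was 9.27 to 32.5% when a length was left out, where 3.13 to 6.12% of all rows fell. These alternatives were added after seeing the data. They tested 22 to 56 of the loci, so the percents also follow how many loci passed the filter. In the replicate block fits it was 0. Of the loci, 2 were tested with the filter on low counts (0.66% of all rows fell) and 56 with rows of at least 10 UMIs (0.209%). The labels do not say that the numbers pair cells. With the filter on low counts, RLE factors, library size alone, DESeq2, a step after 1.0 mm, leaving out pool 7 of set 8.18.21 and leaving out each length tested 0 of the loci and gave no value. The cause of these movements was not tested. Depth limits single loci most, with a median of 8 UMIs per locus.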
